A study of Mus musculus with 9 samples.

Results

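The genes described here are the ligand *Gdf11* and 9 genes of the activin-type pathway through which it signals, 10 of the 37725 genes in the count matrix. They are the type I receptors *Acvr1b* and *Tgfbr1*, the type II receptors *Acvr2a* and *Acvr2b*, the receptor-activated SMADs *Smad2* and *Smad3*, their common partner *Smad4*, and the secreted ligand traps *Fst* and *Fstl3*. The partners were listed by their role in the pathway. *Gdf11* was chosen by its level in the retinal pigment epithelium (RPE) of dKO against control mice, so that difference is given as a description with no test. The data are single-cell RNA counts (unique molecular identifiers, UMIs) from the retinas of 9 mice, 4 control (S01 to S04) and 5 dKO (S05 to S09). All 9 mice carried RPE65-ERT2-Cre.miR-211fl.miR-204fl, in which a tamoxifen-dependent Cre made in RPE acts on floxed miR-204 and miR-211. Injections were given on 5 days from postnatal day 28, of corn oil in controls and of tamoxifen in corn oil at 75 mg/kg in dKO mice, and the retinas were taken 6 months after induction by the study's account. Tamoxifen exposure and loss of the microRNAs cannot be told apart in these groups. For its imaging the study instead used tamoxifen-treated mice without Cre as controls. It reported like retinal phenotypes in these and in Cre-carrying mice given vehicle. It also saw no phenotype after tamoxifen in mice with the Cre but no floxed microRNAs. Those comparisons were of images and not of RNA. By the study's account the Cre driver limits the deletion to RPE. The labels describe dissociation of a retina peeled from the eye cup, and how the RPE cells came to be in these suspensions was not tested.

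GDF11 is a secreted member of the transforming growth factor β superfamily and a close relative of myostatin. It binds the type II receptors encoded by *Acvr2a* and *Acvr2b*, which recruit the type I receptors encoded by *Acvr1b* (ALK4) and *Tgfbr1* (ALK5), and these phosphorylate SMAD2 and SMAD3, which act in the nucleus with SMAD4. Follistatin and follistatin-like 3, encoded by *Fst* and *Fstl3*, bind and block activins, myostatin and GDF11. In the developing retina GDF11 is known for controlling the period over which progenitors make ganglion cells.

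The mature miR-204-5p and miR-211-5p are shown first because the deletion removes both and because they share the seed searched for in the genes. In RefSeq (GRCm38.p6) miR-204-5p lies at chr19:22750610-22750631 and miR-211-5p at chr7:64205831-64205852, both on the plus strand. They have 22 bases each and differ by 1 substitution, A17U from miR-204-5p to miR-211-5p, counted from the 5′ end. The seed, bases 2 to 8, is in capitals.
miR-204-5p: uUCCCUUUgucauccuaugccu
miR-211-5p: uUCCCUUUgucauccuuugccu

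A match to the whole seed (7mer-m8, AAAGGGA, or 8mer, AAAGGGAA, which contains it; sense strand only) was searched in the annotated 3′-UTRs of GENCODE M39 on GRCm39. Of 20960 genes with a 3′-UTR, 21.3% held at least 1 such match, and 4 of the 10 genes did, *Gdf11*, *Acvr1b*, *Smad2* and *Smad3*. None of the 4 had the 8mer, and *Smad2* held 2 matches. The 21.3% was not matched for 3′-UTR length, and the difference in shares was not tested. The longest 3′-UTRs of the 10 genes had from 1155 bases (*Fstl3*) to 8686 bases (*Acvr2b*). The only annotated 3′-UTR of *Gdf11*, a gene at chr10:128718164-128727747 on the minus strand, is 2811 bases long and has its match at base 2622, at chr10:128718347-128718353. The match of *Acvr1b* is at chr15:101110914-101110920 on the plus strand, at base 2171 of its longest 3′-UTR, and that of *Smad3* is at chr9:63557524-63557530 on the minus strand, at base 14. The sites of these 3 genes are shown as DNA because they are the letters that could pair with the seed of the deleted microRNAs, and the match is in capitals.
Gdf11: aactggaatgccaggAAAGGGActtc
Acvr1b: aactttccttgctttAAAGGGAtctt
Smad3: agacactaggagtAAAGGGAgcgg
A match describes letters and not binding. *Tgfbr1*, *Fst* and *Fstl3* held neither of these kinds nor the 7mer-A1 (AAGGGAA). *Acvr2a*, *Acvr2b* and *Smad4* held 1 7mer-A1 each, and *Smad2* held 3 beside its 2 matches. Of all genes with a 3′-UTR, 31.0% held at least 1 of the 3 kinds. Of 60 other genes of the pathway, described further below, 7 held a match to the whole seed.

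The matrix held 31089 cells with a median of 7709 UMIs. Mice S04, S05 and S07 stood apart, with medians of 4775 to 5412.5 UMIs per cell against 8118 to 10340 in the other 6, and with 35.4 to 51.8 counts per 1000000 UMIs (CPM) of *Xist* against 1377 to 1570. The labels give S06 and S07 1 animal number between them, and each was counted as a mouse of its own. Cells were assigned to 15 types by the UMIs of 5 markers each, and cells that met the gates of several types (1904) or of none (1707) were left out. Of the RPE markers, *Rpe65*, *Lrat*, *Rdh5* and *Ttr* had a UMI in 93.3 to 99.4% of the 312 RPE cells, while *Best1* had one in 0.641%. S04 had no RPE cell, S05 had 1 and S07 had 9, so RPE values come from 3 control (S01, S02 and S03) and 3 dKO mice (S06, S08 and S09). In S07, 6 of the 9 RPE cells had a UMI of *Xist*, against the low *Xist* of that mouse as a whole. The RPE cells of S09 were shallow, with a median of 2648 UMIs against 10642 to 25695 in the other 5 mice. Levels are CPM over the summed UMIs of a type in a mouse with at least 10 of its cells, given for 14 types, and are compared between types for 1 gene at a time.

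*Gdf11* RNA was highest in RPE. The mean was 113 ± 52.9 CPM (SD, n = 6 mice), followed by pericytes at 37.5 ± 21.9 (n = 7), Müller glia at 30.9 ± 7.65 (n = 9), ON cone bipolar cells at 25.5 ± 9.36 (n = 9), OFF cone bipolar cells at 24.4 ± 6.42 (n = 9) and glycinergic amacrine cells at 21.7 ± 3.23 (n = 7). Fibroblasts (11.1 ± 4.94, n = 6), GABAergic amacrine cells (5.87 ± 1.96, n = 9) and ganglion cells (5.04 ± 4.03, n = 8) had less. Endothelial cells, rods, horizontal cells, rod bipolar cells and cones had means of 0.60 to 2.20 CPM. In RPE the values were 74.3, 80.3 and 81.7 CPM in control S01, S02 and S03 and 83.2, 195 and 166 CPM in dKO S06, S08 and S09. No sample of the other 13 types reached them, the nearest being the pericytes of S06 at 66.1 CPM. The pericyte mean rests on 43 UMIs in all and on a value of 0 in S04.

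**Figure D1:**
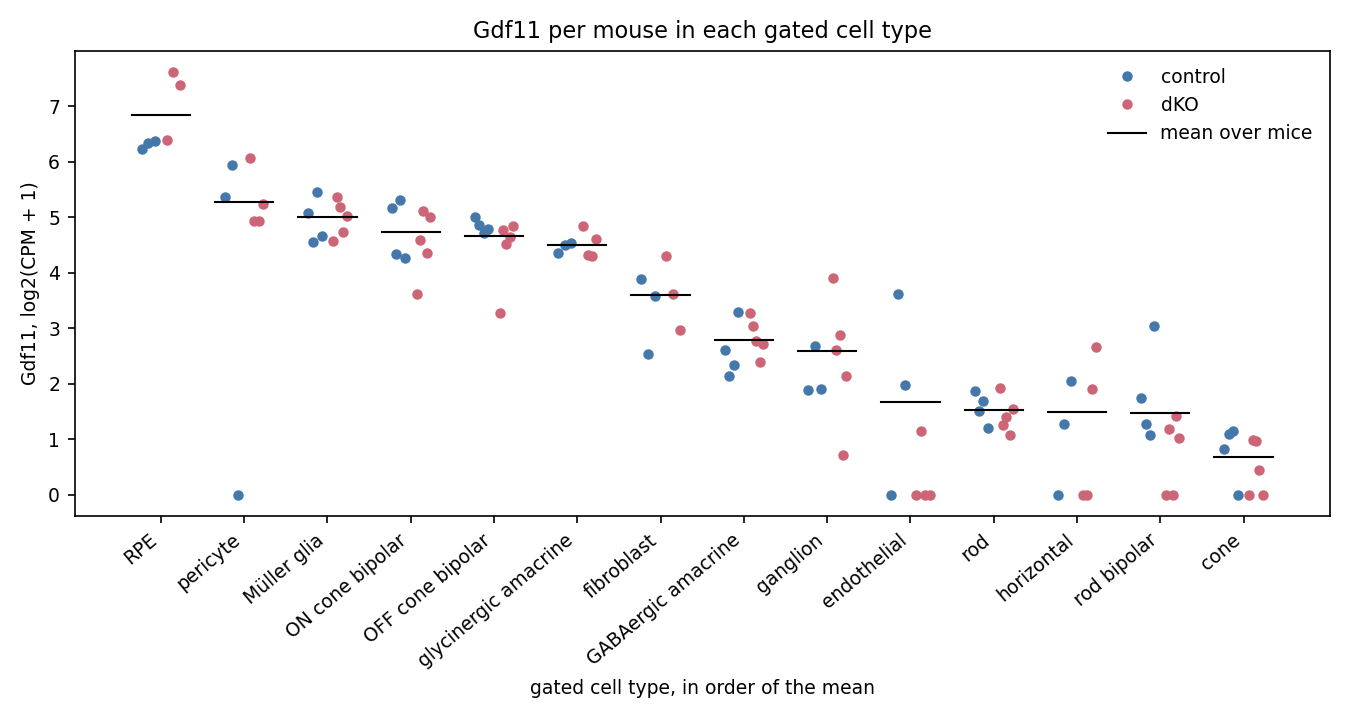
*Gdf11* in each gated cell type as log2(CPM + 1). Each point is 1 mouse with at least 10 cells of the type (blue, control; red, dKO) and the black bar is the mean CPM over mice on the same scale. All 6 RPE samples, from 74.3 CPM up, lie above every sample of the other types, and 5 types at the right or with few cells include mice with no *Gdf11* UMI.

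RPE made up 1.14% of the gated cells and held 27.0% of their 4113 *Gdf11* UMIs. Müller glia held 26.4% with 7.91% of the cells, and rods 4.11% with 57.9% of the cells. These shares depend on how many cells of each type were recovered. In edgeR fits with the mouse as a block, *Gdf11* was higher in RPE than in rods by 6.03 ± 0.23 on the log2 scale (SE, n = 6 mice; Benjamini-Hochberg adjusted p = 1.08e-12 in edgeR) and higher in RPE than in Müller glia by 1.97 ± 0.24 (n = 6; edgeR adjusted p = 8.8e-06). With control mice alone the same differences were 5.33 and 1.5, both past the threshold of 0.05. Müller glia exceeded rods by 4.13 ± 0.16 (n = 9; edgeR adjusted p = 6.29e-12), GABAergic amacrine cells exceeded them by 1.48 ± 0.20 (edgeR adjusted p = 2.77e-06) and ganglion cells by 1.26 ± 0.29 (edgeR adjusted p = 0.000896). The ganglion difference was 0.71 in control mice alone and did not pass (edgeR adjusted p = 0.127). In cones and rod bipolar cells *Gdf11* had 18 and 21 UMIs in all and fell under the count filter, so it was not tested against rods there.

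The bipolar classes were unlike each other. *Gdf11* ranged from 11.2 to 38.4 CPM in ON cone bipolar cells and from 8.72 to 31.1 in OFF cone bipolar cells. In rod bipolar cells it was 0 in S05 and S07, 1.02 to 2.34 in 6 mice and 7.22 in S04, which had 11 such cells. Both cone bipolar classes were above rod bipolar cells in 9 of 9 mice, with ratios of the means of 14.3 and 13.7. This contrast was picked after its values were seen and was not tested.

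Of the type I receptors, *Acvr1b* was spread over the neurons at means of 46.9 to 70.0 CPM, highest in GABAergic amacrine cells (70.0 ± 9.21, n = 9) and cones (64.8 ± 7.94, n = 9). It was low in RPE (14.5 ± 3.25, n = 6) and endothelial cells (8.71 ± 6.57, n = 7). It was lower in RPE than in rods by a log2 fold change of -1.45 ± 0.14 (edgeR adjusted p = 9.31e-08) and than in Müller glia by -1.04 ± 0.14 (edgeR adjusted p = 1.86e-05). Cones exceeded rods by 0.53 ± 0.06 (edgeR adjusted p = 1.25e-07), and GABAergic amacrine cells exceeded rods by 0.55 ± 0.08 (edgeR adjusted p = 5.32e-06). Ganglion cells exceeded rods by 0.28 ± 0.07, a call lost in control mice alone (0.21) and with no filter on low counts (0.17), and rod bipolar cells exceeded rods by 0.43 ± 0.12, a call lost with the library size in place of TMM (0.12), in DESeq2 (0.28) and with no filter (0.18). Müller glia did not pass against rods (-0.23 ± 0.11; edgeR adjusted p = 0.0635) but did without S04 (-0.33; edgeR adjusted p = 0.00102) and with the library size (-0.29), DESeq2 (-0.28), no filter (-0.34) or without the 5% of cells that had the most UMIs (-0.32).

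*Tgfbr1* was highest in fibroblasts (206 ± 38.6 CPM, n = 6), ON cone bipolar cells (188 ± 23.1, n = 9) and OFF cone bipolar cells (169 ± 25.6, n = 9). Rod bipolar cells were again apart from the cone bipolar classes, with 0 to 27.1 CPM against 134 to 226. Microglia, which had at least 10 cells in only 2 mice, held 3451 CPM in S02 and 1612 in S08, and no comparison was made with them. Müller glia had 89.9 ± 15.7 CPM (n = 9) and rods 65.9 ± 4.70 (n = 9), a log2 difference of 0.52 ± 0.09 (edgeR adjusted p = 0.000133). Cones (-1.33), rod bipolar cells (-1.55), GABAergic amacrine cells (-1.17) and ganglion cells (-1.25) were all lower than rods on the log2 scale, past the threshold in edgeR. RPE, at 40.5 ± 5.66 CPM (n = 6), was lower than rods (-0.41 ± 0.11; edgeR adjusted p = 0.0028) and than Müller glia (-0.99 ± 0.12; edgeR adjusted p = 8.49e-06).

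The type II receptor *Acvr2a* was highest in horizontal cells (259 ± 29.4 CPM, n = 7; range 213 to 296) and GABAergic amacrine cells (211 ± 38.0, n = 9; range 154 to 293), and lowest in Müller glia (58.1), pericytes (57.7) and RPE (49.8). Rods had 126 ± 5.50 CPM (n = 9). Relative to rods it was higher in GABAergic amacrine cells (0.66 ± 0.07; edgeR adjusted p = 8.57e-08) and lower in the other 5 types set against them, by the most in RPE (-1.10 ± 0.10; edgeR adjusted p = 4.13e-08) and Müller glia (-1.07 ± 0.06; edgeR adjusted p = 8.75e-10). *Acvr2b*, the other type II receptor, was highest in rods, with 54.6 ± 5.92 CPM (n = 9; range 47.7 to 66.7), and next in cones, with 36.1 ± 4.48 (n = 9; range 30.4 to 42.5). These ranges did not overlap. All 6 types set against rods were lower and past the threshold in edgeR, from -0.53 ± 0.07 in cones to -1.87 ± 0.09 in Müller glia. The type II receptors thus had different leading types, rods and cones for *Acvr2b* and horizontal and GABAergic amacrine cells for *Acvr2a*.

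**Figure D2:**
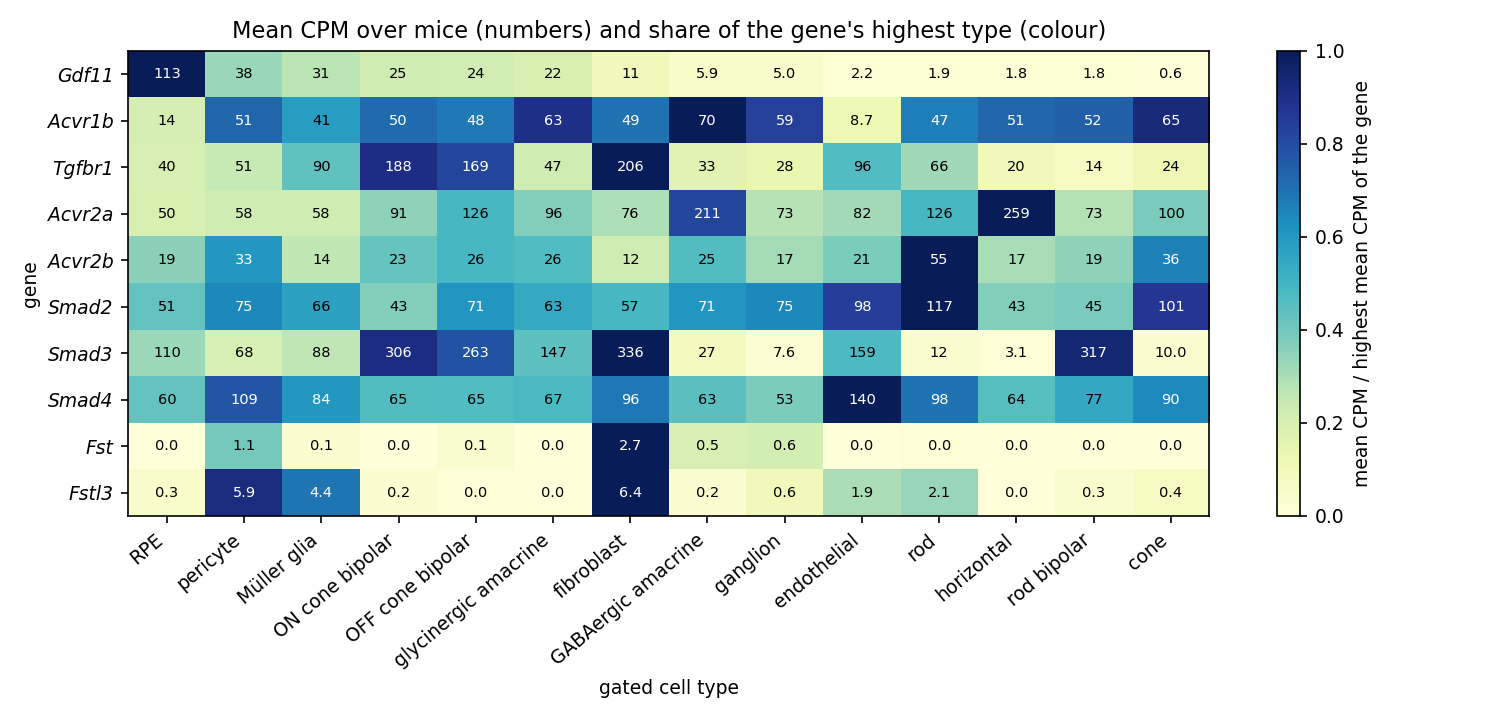
Mean CPM over mice (numbers) of the 10 genes in 14 gated cell types. The colour is each mean as a share of the highest mean of the same gene, so colours compare types within a gene and not genes. *Gdf11* peaks in RPE (113 CPM), where *Acvr1b* (14.5) and *Acvr2a* (49.8) are near their lowest, and *Smad3* is high in bipolar cells and fibroblasts and low in photoreceptors.

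Of the SMADs, *Smad3* ranged most widely between types. It was high in fibroblasts (336 ± 107 CPM, n = 6), rod bipolar cells (317 ± 35.1, n = 9), ON cone bipolar cells (306 ± 35.1, n = 9) and OFF cone bipolar cells (263 ± 36.1, n = 9). Endothelial cells (159), glycinergic amacrine cells (147), RPE (110) and Müller glia (88.0) were intermediate. Rods (11.6 ± 3.15, n = 9), cones (9.99 ± 4.64, n = 9), ganglion cells (7.60 ± 1.67, n = 8) and horizontal cells (3.10 ± 3.17, n = 7) were low. Unlike *Gdf11* and *Tgfbr1*, *Smad3* was at a similar level in the 3 bipolar classes, with ratios to rod bipolar cells of 0.965 and 0.831. The rod bipolar samples lay between 269 and 369 CPM and the rod samples between 7.05 and 16.3, a log2 difference of 5.07 ± 0.13 (n = 9; edgeR adjusted p = 7.39e-21). RPE exceeded rods by 3.52 ± 0.13 (n = 6; edgeR adjusted p = 7.79e-13) and Müller glia exceeded them by 3.0 ± 0.15 (n = 9; edgeR adjusted p = 9.57e-11). Cones did not pass against rods (-0.21 ± 0.14; edgeR adjusted p = 0.209). RPE exceeded Müller glia by 0.47 ± 0.13 (edgeR adjusted p = 0.00733), a call lost with the library size in place of TMM (0.20).

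*Smad2*, which carries the same signal, had other leading types, rods at 117 ± 8.43 CPM (n = 9) and cones at 101 ± 11.6 (n = 9), and was lowest in ON cone bipolar (42.9) and horizontal cells (43.0). It was lower than in rods in all 6 types set against them, from -0.15 ± 0.05 in cones (edgeR adjusted p = 0.0116; -0.14 and no call in control mice alone) to -1.05 ± 0.10 in rod bipolar cells (edgeR adjusted p = 1.86e-09). *Smad4* lay between 53.4 CPM in ganglion cells and 140 CPM in endothelial cells, with rods at 98.1 ± 5.74 (n = 9). It was lower than in rods in ganglion cells (-0.90 ± 0.05), GABAergic amacrine cells (-0.72 ± 0.06) and RPE (-0.47 ± 0.09), all past the threshold in edgeR. The call for Müller glia against rods (-0.17 ± 0.06; edgeR adjusted p = 0.0199) was lost without S01 (-0.15), without S09 (-0.15), in control mice alone (-0.10) and with 4 markers in the gate (-0.14), and the call for RPE against Müller glia (-0.26 ± 0.09; edgeR adjusted p = 0.0289) was lost without S01 (-0.26), S02 (-0.22), S03 (-0.25) or S08 (-0.24) and in control mice alone (-0.35). Rod bipolar cells did not pass (-0.11 ± 0.08), but did with the library size in place of TMM (-0.42), in DESeq2 (-0.27), with no filter (-0.36) and without the top 5% of cells (-0.29).

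The ligand traps were near the limit of detection. *Fst* had 75 UMIs in all gated cells, 37 of them in GABAergic amacrine cells, 15 in ganglion cells and 12 in fibroblasts, which had its highest mean (2.68 ± 2.94 CPM, n = 6). RPE had 0, which allows up to 0.283 CPM from 3 counts over its 6 mice, for counting error only. *Fstl3* had 442 UMIs, with means of 6.40 CPM in fibroblasts and 5.85 in pericytes from 20 and 7 UMIs, then 4.44 ± 2.15 in Müller glia (n = 9, 147 UMIs) and 2.15 ± 0.588 in rods (n = 9, 203 UMIs). Müller glia exceeded rods by 1.16 ± 0.23 on the log2 scale (edgeR adjusted p = 0.000313). RPE, the type with the most *Gdf11*, held 4 UMIs of *Fstl3* and none of *Fst*.

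Most genes differ between retinal cell types, and the counts of these genes past the threshold have to be read against that. Between cones and rods 5 of 7 tested passed (1 higher in cones), with 61.5% of all 12369 genes. Between rod bipolar cells and rods 6 of 7 passed (2 higher), with 65.2% of all genes. All 8 tested passed for GABAergic amacrine cells (4 higher) and for ganglion cells (2 higher) against rods, with 81.2% and 82.9% of all genes. For Müller glia against rods 8 of 9 passed (4 higher), with 78.8%, and for RPE against rods 8 of 8 (*Gdf11* and *Smad3* higher, 6 lower), with 76.2%. Between RPE and Müller glia 6 of 8 passed, *Gdf11*, *Smad3* and *Acvr2b* higher and *Acvr1b*, *Tgfbr1* and *Smad4* lower in RPE, with 66.5%. In all 7 comparisons the share among the 7 to 9 genes tested was above that over all genes, and this difference was not tested. The median log2 fold change of the tested genes was -0.72 for RPE against rods, beside -0.12 over all genes, and 0.01 beside -0.04 for RPE against Müller glia.

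When neighbours in the order of mean levels were compared by an exact sign-flip permutation test over mice (two-sided), 0 of 123 passed once adjusted over all of them (Benjamini-Hochberg), while 22 had an exact p under 0.05 before adjustment. The lowest adjusted p was 0.0961 in this exact test, for 5 pairs higher in 9 of 9 mice, among them *Acvr2a* in GABAergic amacrine against OFF cone bipolar cells and *Acvr2b* in rods against cones. The smallest exact p this permutation test can give is 0.00391 with 9 mice and 0.0625 with 5, so that no single pair could pass after adjustment over 123 and the result does not show that neighbours are alike. In edgeR, *Acvr2b* in cones against rods passed (above), as did *Smad3* in GABAergic amacrine cells against rods (0.98 ± 0.15; edgeR adjusted p = 9.93e-06). RPE was above pericytes for *Gdf11* in 5 of 5 mice that had both, too few for this test to pass.

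**Figure D3:**
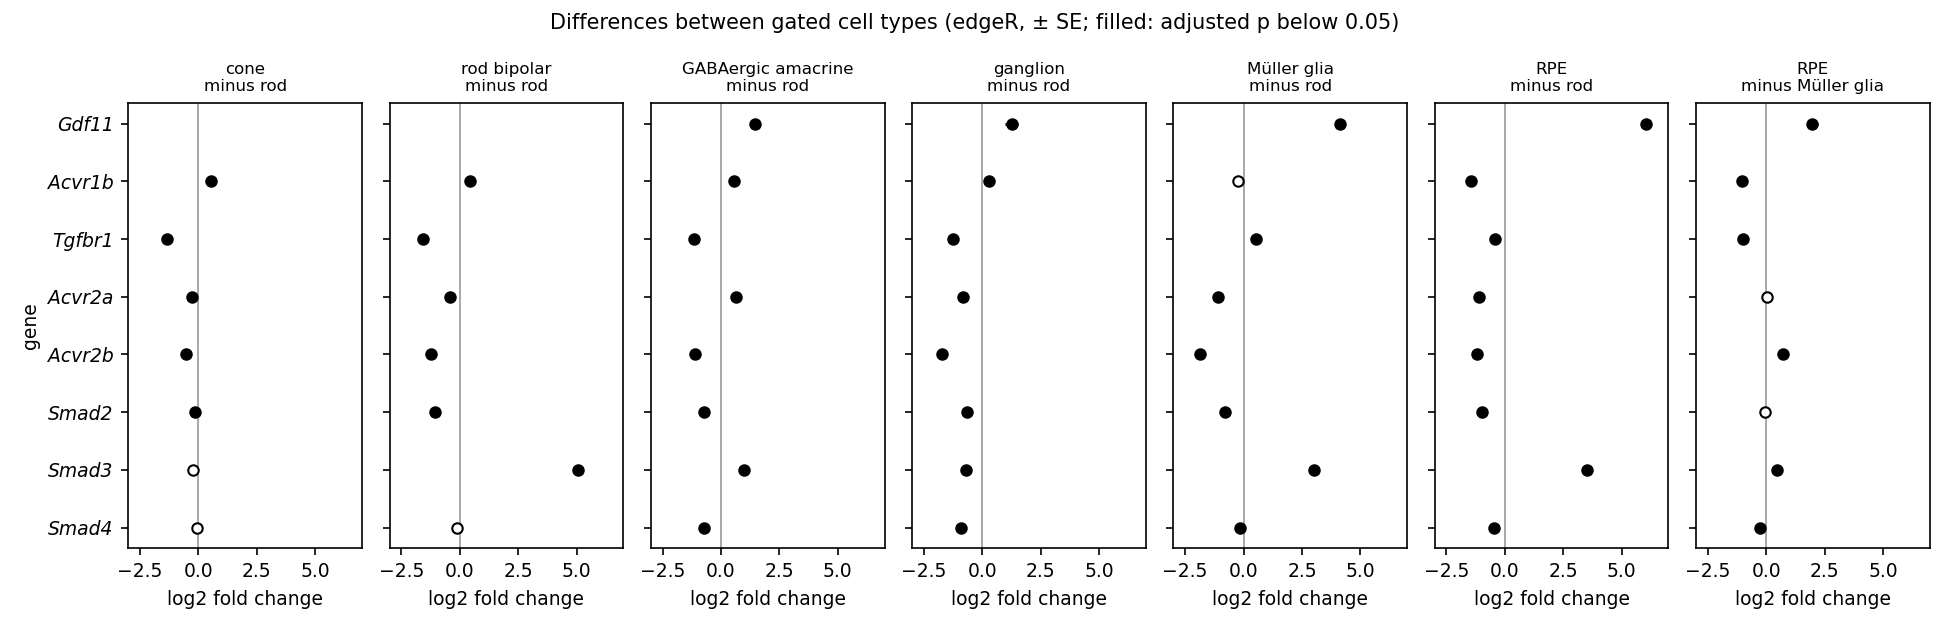
Log2 fold changes between gated cell types from edgeR with the mouse as a block, for 8 of the 10 genes (*Fst* and *Fstl3* not drawn). Bars are SE, mostly smaller than the symbol; filled symbols passed an adjusted p of 0.05 and open symbols did not. *Gdf11* and *Smad3* lie to the right for Müller glia and RPE against rods, and the type II receptors to the left.

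Beyond the 10 genes, 60 other genes of the pathway were examined (ligands, receptors, inhibitors, proteases, SMAD regulators and targets). Of 32 tested between RPE and rods, 21 were higher and 7 lower in RPE, where 76.2% of all genes passed, and of 39 tested between RPE and Müller glia, 12 were higher and 21 lower, where 66.5% of all genes passed. *Nog*, *Wfikkn2* and *Bmp4* had the largest changes against rods. *Wfikkn2* encodes a secreted protein that binds GDF11 and myostatin. It had 86.7 ± 25.4 CPM in RPE (n = 6), 7.29 in Müller glia and 3.09 or less in the other types, an RPE excess over rods of 8.18 ± 0.21 on the log2 scale (edgeR adjusted p = 9.92e-15). RPE thus had the highest mean both of the ligand and of this inhibitor. *Nog*, which encodes the bone morphogenetic protein (BMP) antagonist noggin, had 34.0 ± 9.45 CPM in RPE and at most 0.518 elsewhere (8.48 ± 0.37 over rods; edgeR adjusted p = 5.7e-12). *Bmp4*, a BMP ligand, had 118 ± 13.3 CPM in RPE and at most 4.58 elsewhere (8.02 ± 0.23 over rods; edgeR adjusted p = 4.35e-14). Against Müller glia the largest changes were those of *Nog* (8.62), *Bmp4* (7.73) and *Bmp6* (7.08).

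The other pairs of types had other leading genes. Of 32 tested between Müller glia and rods, 26 were higher and 2 lower in Müller glia (78.8% of all genes passed), led by *Ccn2* (6.50), *Bmpr1b* (6.00) and *Pmepa1* (5.89). *Pmepa1*, a target of the pathway that dampens it, was at 583 ± 146 CPM in Müller glia (n = 9) and 25.2 ± 3.16 in RPE (n = 6). Of 30 tested between ganglion cells and rods, 19 were higher and 6 lower (82.9% of all genes passed), led by *Mstn* (6.69), *Smad9* (4.57) and *Fstl1* (4.50). *Mstn* encodes myostatin, the close relative of GDF11, and had 7.34 ± 1.78 CPM in ganglion cells (n = 8) and at most 0.0793 elsewhere. For GABAergic amacrine cells 21 were higher and 5 lower of 31 (81.2% of all genes passed), led by *Chrd* (4.30), *Tgfb3* (3.67) and *Inha* (3.39). For rod bipolar cells 8 were higher and 8 lower of 24 (65.2% of all genes passed), led by *Bmp7* (5.47), *Tgfb2* (5.35) and *Inha* (4.60), and for cones 11 and 7 of 25 (61.5% of all genes passed), led by *Bmp1* (4.44), *Pcsk6* (3.02) and *Acvr1* (2.62). All of these log2 fold changes are over rods and passed the threshold in edgeR. *Inhba*, which encodes the βA subunit of activin and so a ligand of the same receptors, was named after its values were seen. It was at 70.2 ± 65.3 CPM in fibroblasts (n = 6), 48.5 ± 7.07 in Müller glia (n = 9) and 1.33 ± 1.02 in RPE (n = 6).

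The genes whose pattern over the 14 types was most like that of *Gdf11*, by Pearson's r of log2(mean CPM + 1) among 13690 genes, were *Plxnb2* (r = 0.927), *Parm1* (0.890), *Chd6* (0.867), *Fnbp1* (0.846) and *Cd63* (0.824). *Plxnb2*, a semaphorin receptor, was at 339 CPM in RPE, 122 in pericytes, 90.1 in Müller glia and 5.09 in rod bipolar cells. The types come from the same mice and libraries, and these correlations are descriptions.

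In RPE, *Gdf11* was 78.8 ± 3.94 CPM in control (n = 3) and 148 ± 58.1 CPM in dKO mice (n = 3), a ratio of the means of 1.88 and an edgeR log2 fold change of 0.92 ± 0.28. These are the values on which *Gdf11* was selected. S06, at 83.2 CPM, was just above the highest control at 81.7, while S08 and S09 were far above it, so the groups do not overlap but the difference rests on 2 of the 3 dKO mice. The log2 fold change was 0.64 without S08 and 1.24 without S06. The UMIs behind the values were 188, 84 and 172 in controls and 206, 294 and 155 in dKO mice. A single cell held 27.1% of them in S01 and 29.0% in S09. Without the cell with the most *Gdf11* UMIs in each mouse, the means were 76.4 ± 6.27 and 144 ± 56.2 CPM. The dKO mice with too few cells had 8 UMIs in 9 RPE cells (S07) and 5 UMIs in 1 cell (S05).

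The share of RPE cells with a *Gdf11* UMI was 64.3, 55.3 and 74.0% in controls and 72.3, 75.6 and 65.1% in dKO mice, at unequal depth. After each cell was thinned to 3000 UMIs it was 17.4, 22.9 and 18.4% of 46, 35 and 49 cells in controls and 29.6, 44.1 and 47.4% of 54, 34 and 19 cells in dKO mice. From 1 to 12 cells per control mouse and 7 to 24 per dKO mouse were too shallow for this, the 24 in S09. The thinning was a single random draw. Both sets of shares restate the UMIs on which *Gdf11* was selected and add no separate evidence of a difference. In rods, a type with little *Gdf11*, the thinned share was 0.124 to 1.01% over 9 mice, with median depths of 3573 to 5433 UMIs. In RPE the 5 rod markers summed to 2.11 to 2.51 UMIs per 10000 in control and 1.87 to 2.38 in dKO mice. The Müller glia markers, among them *Rlbp1*, summed to 17.2 to 18.3 and 17.0 to 18.7. Cells that met the gates of several types had been left out, and the source of this RNA was not tested.

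**Figure D4:**
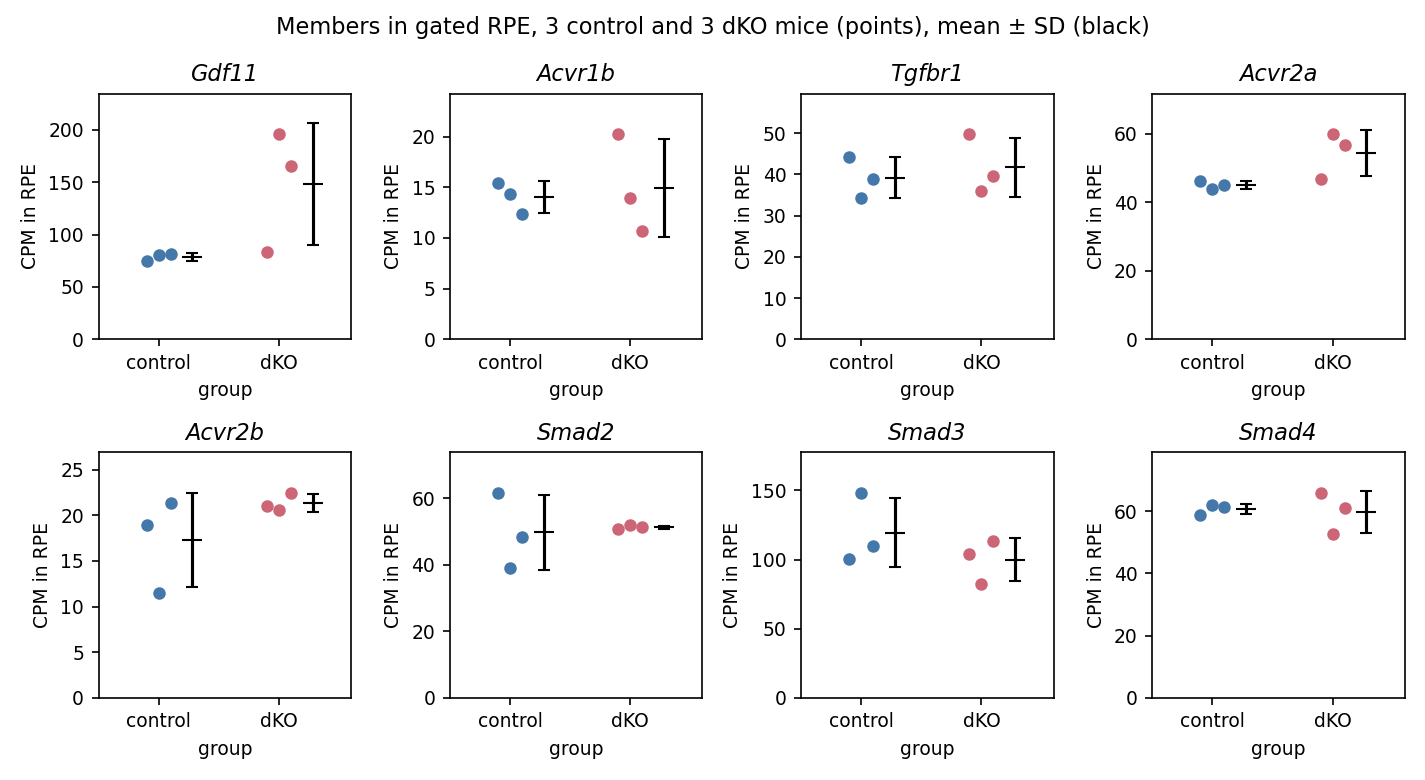
CPM in gated RPE of 8 of the 10 genes in 3 control (S01, S02 and S03, blue) and 3 dKO mice (S06, S08 and S09, red), in that order from left to right; black bars are mean ± SD. The *Gdf11* values of S08 and S09 (195 and 166 CPM) lie apart from the other 4 samples (74.3 to 83.2 CPM), and the groups overlap for *Acvr1b*, *Tgfbr1*, *Acvr2b*, *Smad2*, *Smad3* and *Smad4*.

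No partner of *Gdf11* was called in RPE. Of the 7 tested, 0 passed in edgeR, 0 had an unadjusted p under 0.05 and 0 passed in DESeq2, while 0% of all 9902 genes passed in edgeR, 491 had an unadjusted p under 0.05 and 6 passed in DESeq2. *Acvr2a*, a receptor for the ligand, was 46.2, 44.0 and 45.1 CPM in controls and 46.9, 59.8 and 56.7 CPM in dKO mice (log2 fold change 0.28 ± 0.19; edgeR adjusted p = 0.999). These groups do not overlap, but only by the gap from 46.2 to 46.9 CPM. With 3 mice per group some genes separate by chance, and the share of all genes that do so in RPE was not counted. *Acvr2b* was 19.0, 11.5 and 21.4 CPM in controls and 21.0, 20.6 and 22.5 in dKO mice (0.26 ± 0.28), with overlapping groups. *Smad3* was 101, 148 and 110 CPM in controls and 104, 82.4 and 113 in dKO mice (-0.23 ± 0.18). *Acvr1b*, one of the 4 genes with a seed match, was 15.4, 14.3 and 12.4 CPM in controls and 20.2, 14 and 10.7 in dKO mice (0.16 ± 0.29), and *Smad2*, with 2 matches, differed by 0.04 ± 0.21. *Tgfbr1* differed by 0.10 ± 0.21, and *Smad4* lay between 52.5 and 65.9 CPM over both groups.

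Of the other pathway genes 29 were tested in RPE and 0 passed, with a median log2 fold change of -0.11. *Wfikkn2*, the GDF11-binding inhibitor, was 63.2, 133 and 93.6 CPM in controls and 84.8, 80.4 and 65.2 in dKO mice (-0.27 ± 0.24), with overlapping groups. *Nog* was 46.6, 40.1 and 39.4 CPM in controls and 29.9, 23.3 and 24.6 in dKO mice, which do not overlap (-0.67 ± 0.20; edgeR adjusted p = 0.888). *Ski*, which encodes a SMAD co-repressor, was 84.5, 81.2 and 96.0 CPM in controls and 121, 146 and 109 in dKO mice, which do not overlap either (0.54 ± 0.17; edgeR adjusted p = 0.908). *Bmp6* was 202, 227 and 201 CPM in controls and 301, 223 and 398 in dKO mice (0.56 ± 0.19; edgeR adjusted p = 0.931). *Nog*, *Ski* and *Bmp6* are the 3 with an unadjusted p under 0.05 and were named here after their values were seen. As for *Acvr2a*, the share of all genes whose groups separate in RPE was not counted. The gaps of *Nog* and *Ski* are therefore descriptions.

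Outside RPE no difference in *Gdf11* between the groups passed the test. In Müller glia, which held nearly as many *Gdf11* UMIs as RPE, it was 32.7, 22.4, 42.9 and 24.4 CPM in controls and 22.8, 40.4, 35.3, 25.6 and 31.6 in dKO mice, and the groups overlap (log2 fold change -0.01 ± 0.23; edgeR adjusted p = 1.0). The log2 fold change was -0.26 ± 0.26 in ON cone bipolar cells, -0.20 ± 0.20 in OFF cone bipolar cells, -0.20 ± 0.30 in rods, 0.12 ± 0.19 in glycinergic amacrine cells, 0.44 ± 0.60 in ganglion cells and 0.45 ± 0.25 in GABAergic amacrine cells, where the unadjusted edgeR p was 0.0944. Errors of this size leave small changes undetectable with these mice.

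Leaving aside *Gdf11* in RPE, for which no test is given, none of the 10 genes passed between dKO and control mice in those of the 14 types where it was tested. *Fst* was too low to test in any type, and *Fstl3* was tested only in rods and Müller glia. Some other genes, *Gdf11* among them, were too low to test in some types. Of 9 tested in rods, 7 in cones, 9 in Müller glia, 8 in GABAergic amacrine cells and 8 in ganglion cells, 0 passed in edgeR or DESeq2 and 0 had an unadjusted p under 0.05. The background was alike, with 0% of all genes passing in 13 types and 0.0127% (1 of 7876) in horizontal cells, and with 135 to 491 genes per type at an unadjusted p under 0.05. In rods *Acvr2a* was 118 to 130 CPM in controls and 120 to 134 in dKO mice, and *Acvr2b* was 50 to 56.5 and 47.7 to 66.7. *Smad2* was 109 to 132 CPM in controls and 103 to 124 in dKO mice, and *Smad3* was 7.05 to 13 and 7.64 to 16.3. The groups overlap for all 4. Whether the dKO difference itself differed between rods and Müller glia was tested by an exact permutation over 9 mice (two-sided, on log2(CPM + 1)). In this test 0 of 10 genes passed, with an adjusted p of 0.937 for each and a lowest exact p of 0.143, for *Smad4*. *Fst* was among them with only 4 UMIs in rods and 3 in Müller glia. With so few mice no single gene could pass after adjustment over 10, so the result does not show that rods and Müller glia changed alike.

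**Figure D5:**
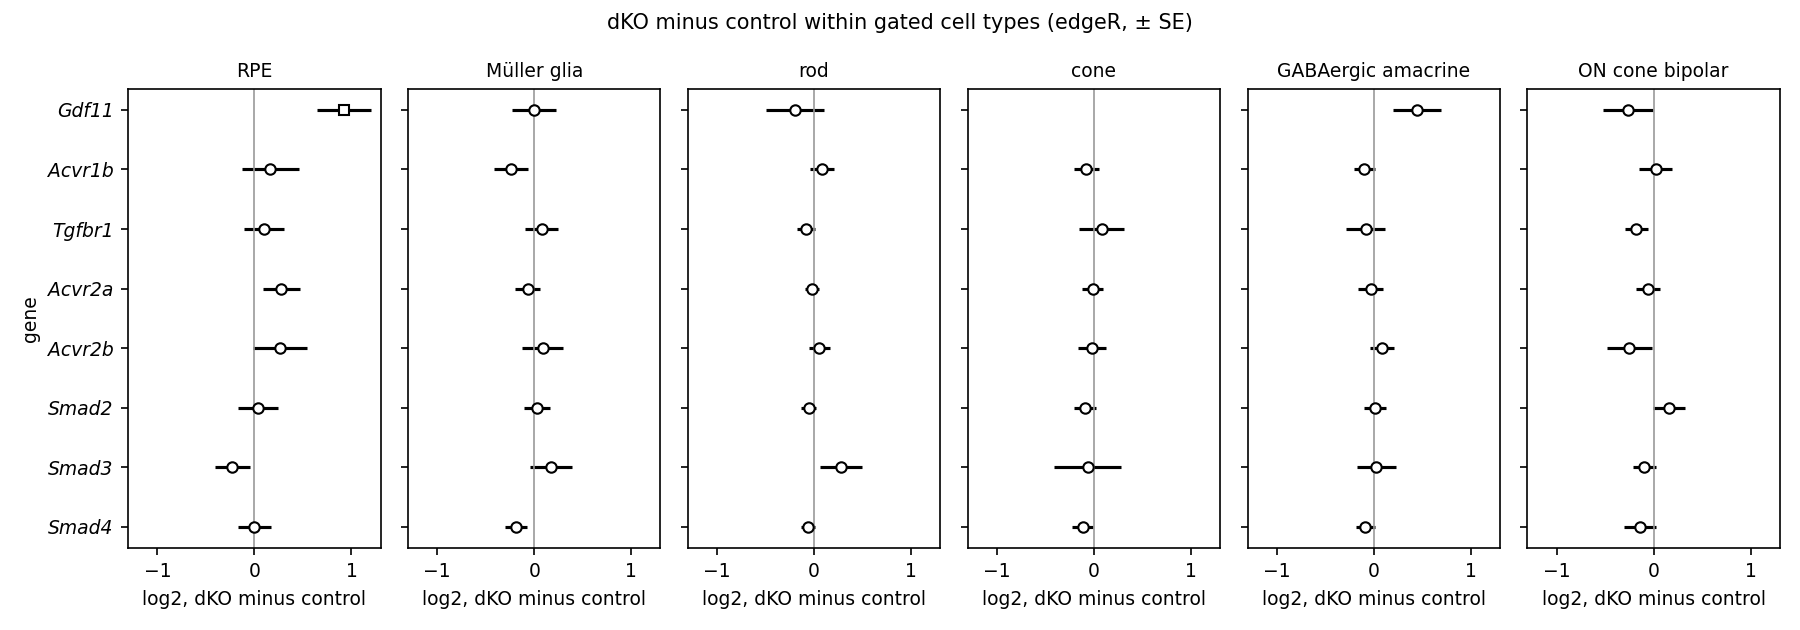
Log2 fold changes, dKO minus control, of 8 of the 10 genes in 6 gated cell types from edgeR, with SE bars. All symbols are drawn open, and of the values tested none passed an adjusted p of 0.05. The square marks *Gdf11* in RPE (0.92), the value that led to its choice, for which no test is given. *Gdf11* has no value in cones, where its counts were too low to test.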

How the data were processed

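Raw UMI counts per cell and gene were deposited as one matrix with a table naming the mouse of each cell. Per the study's methods the authors made these counts with split-pipe on GRCm39, and the submitters' processing notes name R 4.2.2 and Seurat 4.3.0. Cells were gated in Python 3.11.15. A type needed a UMI in at least 3 of its 5 markers and a marker share of at least 0.25 of the typical share, and cells meeting several gates were left out. No doublet caller was run. UMIs were summed per mouse and type (at least 10 cells) and tested in edgeR 4.0.16 (quasi-likelihood, filterByExpr, TMM) on R 4.3.3, with the mouse as a block between types and Benjamini-Hochberg adjustment over all genes tested. DESeq2 1.42.0 was an alternative. SE is the log2 fold change divided by the square root of F. Each mouse was 1 replicate, and total UMIs per mouse ranged from 15079143 to 66528160. Of the combinations of wells, 0 were shared by 2 mice. The deletion could not be checked, since miR-204 and miR-211 are not among the gene names. Scripts were tested on simulated data.

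The genes and lists were chosen with earlier results of these data known. Of 61 other pathway genes listed, 60 were found. By rule the text names all 10 genes, per pair of types the 3 other pathway genes with the largest change, and the 5 genes most like *Gdf11*. Alternatives chosen after seeing the data were a minimum of 5 cells and leaving out the cell with the most *Gdf11* UMIs in each mouse.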

Additional observations from a re-analysis of the deposited data

Results flagged for a closer look

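Within groups of 4 or 5 mice, 6 of 136 sets of values held 1 mouse far from the others by Dixon's criterion, where chance flags about 1 in 20 groups. *Acvr1b* was 56.9 CPM in the GABAergic amacrine cells of control S04 (11 cells), against 74.7 to 76.3 in the other controls. In the Müller glia of the same mouse (23 cells) *Acvr1b* was 70.7 CPM, against 36.1 to 39. *Tgfbr1* was 52.3 CPM in the GABAergic amacrine cells of dKO S05 (37 cells), against 24.9 to 27.9. *Smad2* was 128 CPM in the cones of control S03 (315 cells), against 92.7 to 98.6. *Smad3* was 85.3 CPM in the endothelial cells of dKO S09 (32 cells), against 162 to 172. *Smad4* was 79.1 CPM in the pericytes of dKO S07 (11 cells), against 129 to 138.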

How the results depend on the processing

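No paired analysis was possible because the mice are numbered S01 to S09 and no replicate number is shared by the groups. Leaving aside *Gdf11* in RPE, for which no test is given, no count of the 10 genes past the threshold moved by over 1.5 times. Of the values with 1 mouse left out, 711 kept their direction and call and 14 turned direction, and under the other settings 566 and 13 did. All that turned were below the threshold. *Gdf11* between the groups turned to 0.021 in rods with 4 markers in the gate, to -0.34 in ganglion cells with *Xist* as a covariate, and in Müller glia to 0.013 with the library size and 0.037 with *Xist*. In RPE *Xist* as a covariate gave -0.10 for *Acvr1b*, -0.042 for *Tgfbr1* and -0.050 for *Smad2*, while leaving out the top 5% of cells by UMIs gave -0.12 for *Smad2* and 0.082 for *Smad4*, and DESeq2 gave 0.000346 for *Smad4*. *Acvr2a* in RPE against Müller glia became -0.21 with the library size, -0.10 with no filter on low counts and -0.21 in control mice alone. With 1 mouse left out, *Gdf11* ranged from -0.0069 to 0.21 in glycinergic amacrine cells, -0.015 to 0.94 in ganglion cells, -0.16 to 0.24 in Müller glia and 0.64 to 1.24 in RPE. In RPE *Acvr1b* ranged from -0.12 to 0.32, *Tgfbr1* from -0.041 to 0.20, *Smad2* from -0.11 to 0.23 and *Smad4* from -0.068 to 0.072, and against Müller glia *Acvr2a* from -0.041 to 0.10 and *Smad2* from -0.11 to 0.0019. The cause of these changes was not tested. With no filter on low counts the genes called between the groups over the whole table were 0 in Müller glia, 1 in rods and 16 to 126 in the other 12 types (96 in RPE), against the 0 or 1 given above. In control mice alone the calls of *Acvr2a* in rod bipolar cells against rods (-0.28) and *Acvr2b* in RPE against Müller glia (0.58) were lost, *Smad3* in ganglion cells against rods was lost without the top 5% of cells (-0.28), and *Smad2* in RPE against Müller glia passed with the library size (-0.30). Of the 5 genes most like *Gdf11*, 3 were among the first 5 by Spearman's rho. The library size in place of TMM moved the median of all genes by -0.31 for rod bipolar cells against rods, -0.28 for RPE against rods and -0.26 for RPE against Müller glia. The type with the highest mean was the same for 8 of 10 genes in control mice alone.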
